A study of Mus musculus with 5 samples.

Results

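Chemokines and their receptors were followed as a gene family across 5 mouse expression arrays. A gene belonged to the family where the array's name for it, or the current symbol of its accession, began with Ccl, Cxcl, Ccr or Cxcr and a digit, or was Cx3cl1, Cx3cr1 or Xcl1. This gave 55 genes on 71 probes, of 28785 genes on 41174 probes in all. The rule reads gene names and no measured value. Pf4 and Ppbp belonged through the array's older names for them, Cxcl4 and Cxcl7.

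The induced hepatic progenitor-like cells (iHPC) were on 2 arrays, 1 for cells made with 9 transcription factors (iHPC 9F) and 1 for cells made with 10 (iHPC 10F). Both were made from the neural progenitor line NSBAg2 with pMXs retroviral vectors; the antibiotic G418 was added 3 weeks after infection and kept for 1 week. The hepatic progenitor cells (HPC) were on 2 arrays, the lines HB1 from C57BL6J and HNG2 from STOCK Tg(Nanog-GFP, Puro)1 Yam, each from E13.5 fetal liver. The neural progenitor cells (NPC) were on 1 array, the line NSBAg2 itself, derived from the embryonic stem line BAg73C2, which carries a beta-geo knock-in in Afp. NPC and iHPC therefore shared that allele and a parent line, and HPC differed from both in origin. Since beta-geo gives resistance to G418, iHPC had been selected through the Afp locus. Each line or factor set was on 1 array only. The spread behind the p-values therefore came from the HPC pair, which differed in line and strain, and the iHPC pair, which differed in factors. NPC, with 1 array, added nothing to that spread, and its own spread was not measured. Any technical part of the spread cannot be told apart from these differences.

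Chemokines are small secreted proteins that set up gradients along which cells carrying the matching receptor move. The receptors are seven-pass membrane proteins that signal through inhibitory G proteins, and most ligands bind several of them. Inflammatory chemokines are switched on by cytokines through factors such as NF-kappa-B and the interferon-activated STAT and IRF proteins, and they call in neutrophils, monocytes and T cells. Homeostatic chemokines place cells in tissues without injury: Cxcl12 and its receptor Cxcr4 hold blood-forming stem cells in the marrow and guide neural precursors in the brain. Hepatocytes and hepatic progenitors are themselves known sources of several inflammatory ligands.

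The promoters of 3 members are shown, those of the genes called between iHPC and NPC that matched the promoter table: Cxcl10 and Cxcl1 were higher in iHPC, and Cxcl14 was lower. Cxcl11, Cxcl17 and Ccl11, also called there, were not matched. The sequences are from RefSeq on build GRCm38.p6 and run 5′ to 3′ on the strand of the gene, from 250 bases before the start to 50 bases after it. Capitals mark matches to 2 motifs searched on both strands, where N is any base: GAAA, NN and GAAA in a row, the core of an interferon-stimulated response element, and GGGA, NN and TTCC in a row, a form of the NF-kappa-B site.
Cxcl10, chr5:92348840-92349139, minus strand: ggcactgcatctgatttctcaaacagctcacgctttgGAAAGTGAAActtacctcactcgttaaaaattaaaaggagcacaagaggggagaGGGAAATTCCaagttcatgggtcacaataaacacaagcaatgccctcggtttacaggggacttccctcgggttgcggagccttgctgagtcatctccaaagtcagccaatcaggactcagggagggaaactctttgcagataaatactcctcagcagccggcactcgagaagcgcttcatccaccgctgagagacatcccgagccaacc
Cxcl1, chr5:90890995-90891294, plus strand: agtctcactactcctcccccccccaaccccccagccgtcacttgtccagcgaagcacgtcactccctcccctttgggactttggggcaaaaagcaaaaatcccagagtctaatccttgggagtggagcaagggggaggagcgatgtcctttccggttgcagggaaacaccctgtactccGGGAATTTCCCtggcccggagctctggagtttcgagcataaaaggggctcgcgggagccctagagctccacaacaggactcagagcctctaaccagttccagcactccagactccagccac
Cxcl14, chr13:56296502-56296801, minus strand: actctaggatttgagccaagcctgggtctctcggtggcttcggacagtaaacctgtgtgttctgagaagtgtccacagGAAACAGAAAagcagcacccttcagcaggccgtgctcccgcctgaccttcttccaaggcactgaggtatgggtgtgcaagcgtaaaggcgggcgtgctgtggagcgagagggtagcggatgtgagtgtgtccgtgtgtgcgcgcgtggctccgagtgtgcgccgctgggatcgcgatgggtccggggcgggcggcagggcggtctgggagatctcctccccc

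In the Cxcl10 promoter the interferon core lay from -213 to -204 and the NF-kappa-B match from -159 to -150, counted from the start of the gene. In the Cxcl1 promoter the capitals join a match on the gene's strand from -71 to -62 and an overlapping match on the opposite strand from -70 to -61. In the Cxcl14 promoter an interferon core lay from -172 to -163. Across 32851 promoters of the same length, 3.44% held the interferon core and 1.47% the NF-kappa-B motif. Of the 40 members in the promoter table, 3 held the interferon core (Ccl19, Cxcl10 and Cxcl14) and 6 held the NF-kappa-B motif (Ccl1, Ccr3, Cxcl1, Cxcl10, Cxcl2 and Cxcl3). The members are counted by gene over 44 promoters and the shares above by promoter, so the units differ. Cxcl1 and Cxcl10 were the 2 of those 6 that could be tested, since Ccl1, Cxcl2 and Cxcl3 were well above background on no array and Ccr3 on some arrays of a group only. A match is a description of the letters and not a site in use.

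Signal is given as a level, the log2 of the scanner's processed signal minus the 75th percentile of that array, so that 0 is the brightness of the probe at that percentile. Levels of different probes cannot be set against each other. Well above background is the scanner's own call, and it held for 58.9% to 65.6% of the spots per array, with 0 saturated spots. HB1 was scanned on 1 day, HNG2 on another and the remaining 3 arrays together on 1 more, so scan day and the contrast of HPC with the other groups cannot be told apart, while iHPC and NPC shared a day and iHPC 10F and NPC a slide. All 7 hepatoblast markers were well above background in iHPC and in HPC, against 3 of 7 in NPC. Neural progenitor markers gave 5 of 6 in each iHPC array, 3 in HB1, 4 in HNG2 and 6 of 6 in NPC, so iHPC carried both kinds of marker. Fewer cells of a type and less RNA per cell cannot be told apart on such arrays.

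Chemokine genes were sparsely detected. In iHPC 9F 24 of the 55 members were well above background and in iHPC 10F 21, against 17 in HB1, 20 in HNG2 and 22 in NPC. These are 30.9% to 43.6% of the members, against 58.3% to 65.1% of all genes. Members on every array numbered 12, and 23 were on none. The receptors were the emptiest class: 11 of 18 were on no array, and none was on all 5. Among the receptors on no array were Ccr1, Ccr1l1, Ccr4, Ccr8, Ccr10, Cxcr1, Cxcr2, Cxcr5, Cxcr6 and Cx3cr1. The ligands on no array were Ccl1, Ccl3, Ccl4, Ccl12, Ccl24, Ccl21c, Ccl22, Cxcl13, Cxcl2, Cxcl3, Cxcl9 and Xcl1, and the levels of all probes of these 23 genes lay between -8.92 and -5.37. A further 5 were on some arrays of a group only and were not tested: Ccl6 and Ccl28 in HNG2, Ccr2 in iHPC 10F, Cxcr3 in iHPC 9F, and Ccr3 in iHPC 9F and HB1.

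The remaining 27 members had the scanner's call throughout 1 or more groups and were tested in a limma fit over 19308 genes, with adjusted p under 0.05 as the call. A member that entered only through the group where it was high had to differ, and 15 of the 27 were not on all arrays, so the counts describe the family and are no support for it as a class. Cxcl11, Pf4 and Ppbp entered through iHPC alone, and Ccl8, Ccl11, Cxcl14, Cxcl15 and Ccr7 through NPC alone. Calls of these members against the groups where they were dim are a description only. Between iHPC and NPC 6 of the 27 were called, 4 higher and 2 lower in iHPC, where 5.65% of all genes tested were called (2.8% higher and 2.85% lower). The 4 were Cxcl1, Cxcl10, Cxcl11 and Cxcl17, and the 2 were Ccl11 and Cxcl14. Between iHPC and HPC 6 were called, all higher in iHPC (Ccl5, Cxcl10, Cxcl11, Cxcr4, Pf4 and Ppbp), where 5.43% of all genes were called (3.55% higher and 1.88% lower). Between HPC and NPC 7 were called, Cxcl1 higher in HPC and Ccl8, Ccl11, Cxcl14, Cxcl15, Ccr7 and Cxcr4 lower, where 15.7% of all genes were called (6.68% higher and 8.98% lower). The median log2 difference of the 27 was 0.37 for iHPC minus NPC, 1.68 for iHPC minus HPC and -0.91 for HPC minus NPC, beside 0.03, 0.05 and -0.03 over all genes. These medians include members dim in both groups compared, and the -0.91 is the value of 1 such member, Cxcl11. They are therefore no measured shift of the family. The 3 comparisons share arrays, so their values are not independent of each other. The fit has 2 residual degrees of freedom, and these counts moved with the arrays that set the spread: leaving out HB1 or HNG2 called 17 to 21 of the 27 members and 6754 to 9762 of the 19308 genes in a comparison, and leaving out either iHPC array called 0 of either in each. With no filter on dim probes, Cxcl1, Cxcl10, Cxcl17 and Ccl11 between iHPC and NPC and Ccl5 and Pf4 between iHPC and HPC were no longer called (limma adjusted p = 0.0519 to 0.0623), and with iHPC left out of the fit none of the 7 between HPC and NPC was (0.0679 to 0.143).

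**Figure D1:**
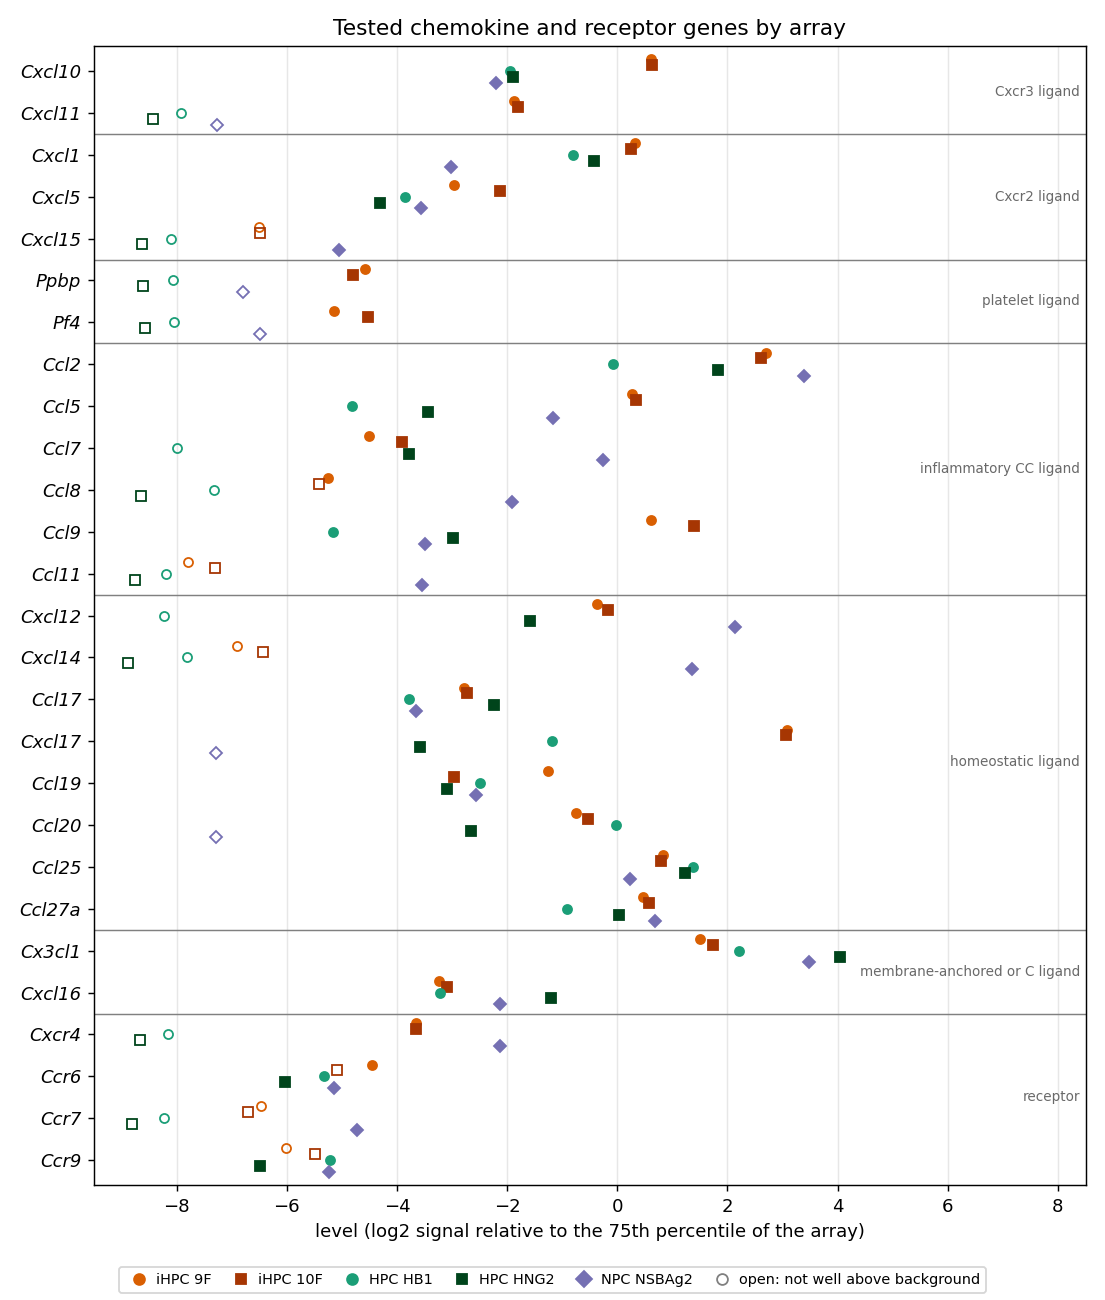
Level of each of the 27 tested chemokine and receptor genes on each array, in log2 signal relative to the 75th percentile of the array. Circles and squares are the individual iHPC and HPC arrays, diamonds the NPC array, and open symbols were not well above background; Cxcl10 and Cxcl11 sit to the right of the HPC and NPC arrays on both iHPC arrays.

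Cxcl10 and Cxcl11, ligands of Cxcr3, a receptor of activated T cells and natural killer cells, were the members called higher in iHPC against both other groups. Of these, only Cxcl10 was measured in every group. Cxcl10, an interferon-induced ligand, had levels of 0.61 in iHPC 9F and 0.63 in iHPC 10F, against -1.94 in HB1 and -1.90 in HNG2, and -2.20 in NPC. Both iHPC arrays lay above the other 3, and its probe was well above background on all 5. The log2 difference was 2.82 (SE 0.23) between iHPC and NPC, a 7.05-fold higher signal in iHPC (limma adjusted p = 0.0292), and 2.54 (SE 0.18) between iHPC and HPC, or 5.81-fold (limma adjusted p = 0.0224). Between HPC and NPC it was 0.28 (SE 0.23) with a limma adjusted p of 0.433. Cxcl11, a further interferon-induced ligand of the same receptor, had levels of -1.88 and -1.81 in iHPC 9F and 10F, against -7.92 and -8.43 in HB1 and HNG2 and -7.27 in NPC. It was well above background in iHPC only, so its fold is a bound set by the lowest signal called above background on the dim arrays. Cxcl11 was at least 13.46-fold higher in iHPC than in NPC (limma adjusted p = 0.0285) and at least 22.1-fold higher than in HPC (limma adjusted p = 0.0157). It entered the test through iHPC alone and so had to differ, and these calls are no support. Over the alternatives run, its smallest log2 difference was 1.72 from NPC and 2.18 from HPC, less than these bounds. Cxcl9, the ligand of this receptor that depends most on interferon gamma, was on no array, and Cxcr3 itself was above background in iHPC 9F alone.

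Among the ligands of Cxcr2, which draw neutrophils, Cxcl1 was lowest in NPC. Its levels were 0.33 and 0.26 in iHPC 9F and 10F, against -0.81 and -0.41 in HB1 and HNG2 and -3.02 in NPC. The 3 groups did not overlap. Cxcl1 was 9.94-fold higher in iHPC than in NPC (log2 difference 3.31, SE 0.29, limma adjusted p = 0.0300) and 5.30-fold higher in HPC than in NPC (2.41, SE 0.29, limma adjusted p = 0.0239). The log2 difference of 0.91 (SE 0.24) between iHPC and HPC was not called (limma adjusted p = 0.123). Cxcl5, which shares the receptor, had levels of -2.96 and -2.12 in iHPC, against -3.85 and -4.31 in HPC and -3.57 in NPC, and it was called in no comparison. Cxcl15, known as lungkine in mouse, was above background in NPC alone, at -5.05, near the lowest signal called above background there, -5.59. Its levels were -6.50 and -6.48 in iHPC and -8.10 and -8.63 in HPC. Cxcl15 was at least 2.39-fold lower in HPC than in NPC (limma adjusted p = 0.0186), but it entered the test through the NPC array alone. Over the alternatives run, that log2 difference shrank to -0.96, less than this bound. Its second probe was above background on no array, at -6.04 and -5.79 in iHPC, -8.21 and -8.77 in HPC and -5.61 in NPC.

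The platelet ligands Ppbp and Pf4, stored in the granules of megakaryocytes and platelets, were above background in iHPC only. Ppbp had levels of -4.58 and -4.80 in iHPC 9F and 10F, against -8.07 and -8.61 in HB1 and HNG2 and -6.79 in NPC. Pf4 had levels of -5.14 and -4.52 in iHPC, against -8.05 and -8.58 in HPC and -6.48 in NPC. For both genes the iHPC arrays lay above the other 3, but both entered the test through iHPC alone and so had to differ. Their iHPC levels were near the lowest signals called above background, -5.67 in iHPC 9F and -5.19 in iHPC 10F. Against HPC, Ppbp was at least 3.07-fold higher (limma adjusted p = 0.0234) and Pf4 at least 2.78-fold higher (limma adjusted p = 0.0326) in iHPC. Over the alternatives run, the log2 difference from HPC fell to 0.92 for Ppbp and 1.06 for Pf4, less than these bounds. Against NPC neither passed, with at least 1.87-fold for Ppbp (limma adjusted p = 0.0638) and at least 1.7-fold for Pf4 (limma adjusted p = 0.138).

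Leukocyte markers were read beside these ligands, since blood cells are a main source of them. Of 14 leukocyte markers on the array, 8 were well above background on each iHPC array, against 8 in HB1, 9 in HNG2 and 6 in NPC, and their summed level, as signal over the 75th percentile, was 6.27 to 6.68 in iHPC, against 2.91 to 7.08 in HPC and 2.57 in NPC. Most of that sum in iHPC and in both HPC arrays was Cd14, an endotoxin co-receptor. It had levels of 2.05 and 2.13 in iHPC, against 1.11 and 2.70 in HB1 and HNG2 and 0.20 in NPC. Ptprc, the common leukocyte antigen CD45, was above background in iHPC only, at -2.90 and -2.84, and the myeloid receptor Csf1r had levels of 0.25 and 0.46 in iHPC, against -2.52 and -4.75 in HPC and -5.45 in NPC. Other listed markers ran otherwise. Coro1a was highest in NPC, at -0.21, against -2.94 and -3.15 in iHPC. Itgax was above background in HPC only, and Cd3e was highest in HB1, at -2.15. The myeloid markers Itgam, Adgre1, Spi1 and Laptm5 were on no array. The part of these markers in the differences of Cxcl10, Cxcl11, Ccl5, Pf4 and Ppbp was not tested.

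The inflammatory CC ligands differed in which group held the highest level. Ccl5, which attracts T cells and monocytes, had levels of 0.27 and 0.34 in iHPC 9F and 10F, against -4.82 and -3.43 in HB1 and HNG2 and -1.16 in NPC. The groups did not overlap, with HPC lowest. Ccl5 was 21.5-fold higher in iHPC than in HPC (log2 difference 4.43, SE 0.55, limma adjusted p = 0.0429), and its second probe ran the same way. With quantile normalization the call was lost (log2 difference 4.37, limma adjusted p = 0.0543, range over alternatives 0.00516 to 0.294). The log2 difference of 1.46 (SE 0.67) from NPC was not called (limma adjusted p = 0.297), nor was that of -2.96 between HPC and NPC (0.0679). Ccl9, a ligand of Ccr1 in mouse, had levels of 0.60 and 1.39 in iHPC, against -5.17 and -2.99 in HPC and -3.49 in NPC. Both iHPC arrays were higher, with log2 differences of 5.08 (SE 0.88) from HPC and 4.49 (SE 1.07) from NPC, but neither was called (limma adjusted p = 0.0687 and 0.118).

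Ccl2, Ccl7, Ccl8 and Ccl11 lie in 1 uninterrupted run of members on chromosome 11, with Ccl12 and Ccl1, in the RefSeq gene order of GRCm38.p6. NPC held the highest level of each of the 4. Ccl11, or eotaxin, which attracts eosinophils, was above background in NPC alone at -3.55, against -7.80 and -7.30 in iHPC and -8.19 and -8.76 in HPC. Ccl11 was at least 3.68-fold lower in iHPC than in NPC (limma adjusted p = 0.0334) and at least 6.76-fold lower in HPC than in NPC (limma adjusted p = 0.0146). With normexp background correction the fitted log2 difference between iHPC and NPC was -0.98 and was not called (limma adjusted p = 0.0639, range over alternatives 0.00820 to 0.256). Ccl8, a monocyte attractant, had levels of -5.25 and -5.42 in iHPC 9F and 10F, of which only the 9F array was above background, against -7.32 and -8.65 in HPC, neither above background, and -1.91 in NPC. Ccl8 was at least 21.2-fold lower in HPC than in NPC (limma adjusted p = 0.0202), while the log2 difference of -3.43 (SE 0.65) between iHPC and NPC was not called (limma adjusted p = 0.0781).

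Ccl2, the main ligand of Ccr2 on monocytes, was on every array, at 2.70 and 2.61 in iHPC, against -0.07 and 1.83 in HB1 and HNG2 and 3.39 in NPC. Ccl7, which shares that receptor, had levels of -4.50 and -3.91 in iHPC, against -7.99 in HB1 (not above background), -3.78 in HNG2 and -0.27 in NPC. Neither gene was called in any comparison, and the HPC arrays were far apart for both. The other run on chromosome 11 holds Ccl5, Ccl9, Ccl6, Ccl3 and Ccl4, of which Ccl3 and Ccl4 were on no array while Ccl5 was on all 5. The run on chromosome 5 holds Cxcl5, Ppbp, Pf4, Cxcl3, Cxcl15, Cxcl1 and Cxcl2, of which Cxcl2 and Cxcl3 were on no array while Cxcl1 and Cxcl5 were on all 5.

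**Figure D2:**
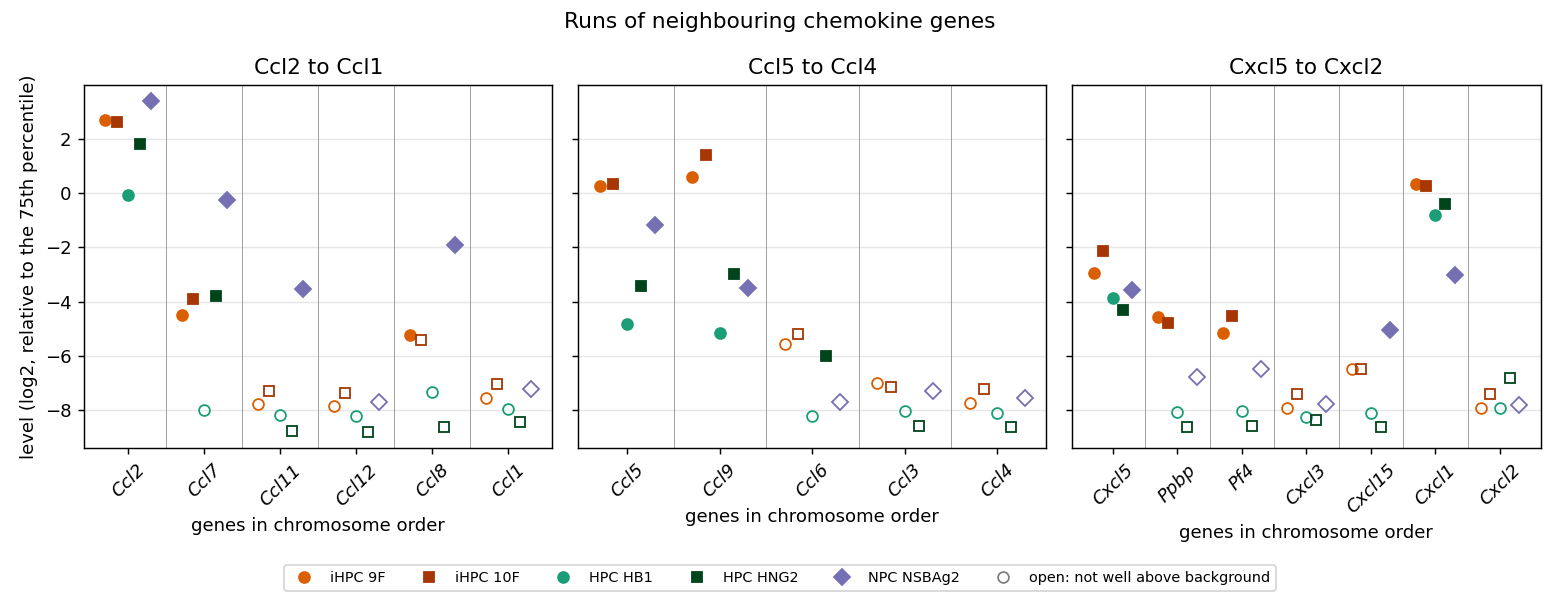
Level of each member in the 3 longest runs of adjacent chemokine ligand genes, on chromosomes 11 (left and middle panels) and 5 (right panel), in log2 signal relative to the 75th percentile of the array, with genes in RefSeq order and open symbols for arrays not well above background. In the left panel NPC is highest for Ccl2, Ccl7, Ccl8 and Ccl11, and in the right panel Cxcl1 stands on all 5 arrays beside Cxcl2 on none.

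Among the homeostatic ligands, Cxcl14 and Cxcl17 gave opposite patterns. Cxcl14, made by many epithelia and by brain, was above background in NPC alone, at 1.37, against -6.89 and -6.43 in iHPC and -7.80 and -8.88 in HPC. Cxcl14 was at least 111-fold lower in iHPC than in NPC (limma adjusted p = 0.0285) and at least 204-fold lower in HPC than in NPC (limma adjusted p = 0.0114). Cxcl17, a chemokine-like protein of mucosal surfaces, had levels of 3.08 and 3.06 in iHPC 9F and 10F, against -1.19 in HB1 and -3.59 in HNG2, while NPC at -7.29 was not above background. The iHPC arrays stood above both HPC arrays, which stood above NPC. Cxcl17 was at least 405-fold higher in iHPC than in NPC (limma adjusted p = 0.0347). The log2 difference of 5.46 (SE 0.91) between iHPC and HPC was not called (limma adjusted p = 0.0650), nor was that between HPC and NPC (at least 9.22-fold, limma adjusted p = 0.0677).

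Ccl20, the ligand of Ccr6, had levels of -0.74 and -0.54 in iHPC 9F and 10F, against -0.03 and -2.66 in HB1 and HNG2, and -7.28 in NPC, where it was not above background. The iHPC arrays lay between the HPC arrays, and neither difference from NPC was called (at least 31.0-fold for iHPC, limma adjusted p = 0.0756, and at least 19.0-fold for HPC, limma adjusted p = 0.0572). Cxcl12 had levels of -0.37 and -0.16 in iHPC, against -8.23 in HB1 (not above background), -1.59 in HNG2 and 2.15 in NPC. With HPC this far apart it was called in no comparison: the log2 difference between iHPC and HPC was 4.64 with an SE of 2.47 (limma adjusted p = 0.313). Its second probe ran the same way.

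The other 4 homeostatic ligands tested were on all 5 arrays and called in no comparison. Ccl25, which attracts thymocytes and gut T cells, had levels of 0.84 and 0.79 in iHPC, against 1.37 and 1.23 in HPC and 0.24 in NPC, but 1 of its other 2 probes ran the opposite way for HPC against each of the other groups. Ccl27a, a skin T cell attractant, ranged from 0.48 to 0.57 in iHPC, against -0.91 to 0.02 in HPC and 0.69 in NPC, and Ccl17, a ligand of Ccr4, from -2.78 to -2.73 in iHPC, against -3.78 to -2.24 in HPC and -3.66 in NPC. Ccl19, a ligand of Ccr7, ranged from -2.96 to -1.26 in iHPC, against -3.09 to -2.49 in HPC and -2.57 in NPC, while its second probe was on no array. Ccl19 and Ccl27a have near-identical copies in the mouse genome that these probes may not separate.

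The membrane-anchored ligands Cx3cl1, or fractalkine, and Cxcl16, the ligand of Cxcr6, were on all arrays and called in no comparison. Cx3cl1 had levels of 1.51 and 1.74 in iHPC, against 2.20 and 4.04 in HB1 and HNG2 and 3.47 in NPC, so both iHPC arrays lay below the other 3. Its limma adjusted p was 0.273 against HPC and 0.305 against NPC. Cxcl16 had levels of -3.24 and -3.10 in iHPC, against -3.22 and -1.20 in HPC and -2.13 in NPC, with iHPC 10F inside the HPC range and iHPC 9F just below HB1. For both genes the 2 probes disagreed in direction between HPC and NPC. Their receptors, Cx3cr1 and Cxcr6, were on no array.

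Of the 18 receptors, 4 could be tested, and Cxcr4 and Ccr7 were called. Cxcr4, the receptor of Cxcl12, had levels of -3.64 and -3.65 in iHPC 9F and 10F, against -8.15 and -8.66 in HB1 and HNG2, where it was not above background, and -2.12 in NPC. The groups did not overlap, with NPC highest, and the second probe ran the same way. Cxcr4 was at least 6.32-fold higher in iHPC than in HPC (limma adjusted p = 0.0183) and at least 18.2-fold lower in HPC than in NPC (limma adjusted p = 0.0105). The log2 difference of -1.53 (SE 0.32) between iHPC and NPC was not called (limma adjusted p = 0.0966). Ccr7, which brings cells to lymph nodes, was above background in NPC alone, at -4.72, against -6.47 and -6.70 in iHPC and -8.23 and -8.82 in HPC. Ccr7 was at least 3.01-fold lower in HPC than in NPC (limma adjusted p = 0.0177) and was not called between iHPC and NPC (0.0826). Ccr6, the receptor of Ccl20, and Ccr9, the receptor of Ccl25, stayed near the background on every array, from -6.03 to -4.45 for Ccr6 and from -6.49 to -5.21 for Ccr9, and were not called.

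Mesenchymal markers were read beside the members that were highest in NPC. Of 7 such markers, 4 and 5 were well above background in iHPC 9F and 10F, against 2 and 5 in HB1 and HNG2 and 6 in NPC, and their summed level was 2.19 and 2.36 in iHPC, against 0.167 and 2.16 in HPC and 187 in NPC. Col1a1, a fibrillar collagen, had a level of 4.98 in NPC, against -5.23 in HB1 and 0.02 in HNG2, and was not above background in iHPC. The part of these markers in the differences of Ccl8, Ccl11, Cxcl14, Cxcl15, Cxcr4 and Ccr7 was not tested. Endothelial markers gave summed levels of 5.15 to 6.85 in iHPC, against 12.6 to 13.1 in HPC and 0.841 in NPC, and the defining markers Pecam1, Cdh5, Tie1 and Lyve1 were on no array. That sum was mostly Flt1, with levels of 2.66 and 2.12 in iHPC, against 3.63 and 3.70 in HPC and -0.59 in NPC, while Vwf, at -1.26 and -0.62 in iHPC, against -5.47 and -7.15 in HPC and -3.16 in NPC, and Kdr, at -3.76 and -3.13 in iHPC, against -5.18 and -7.75 in HPC and -7.02 in NPC, were highest in iHPC. Of 5 erythroid markers, 3 were above background on each array.

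**Figure D3:**
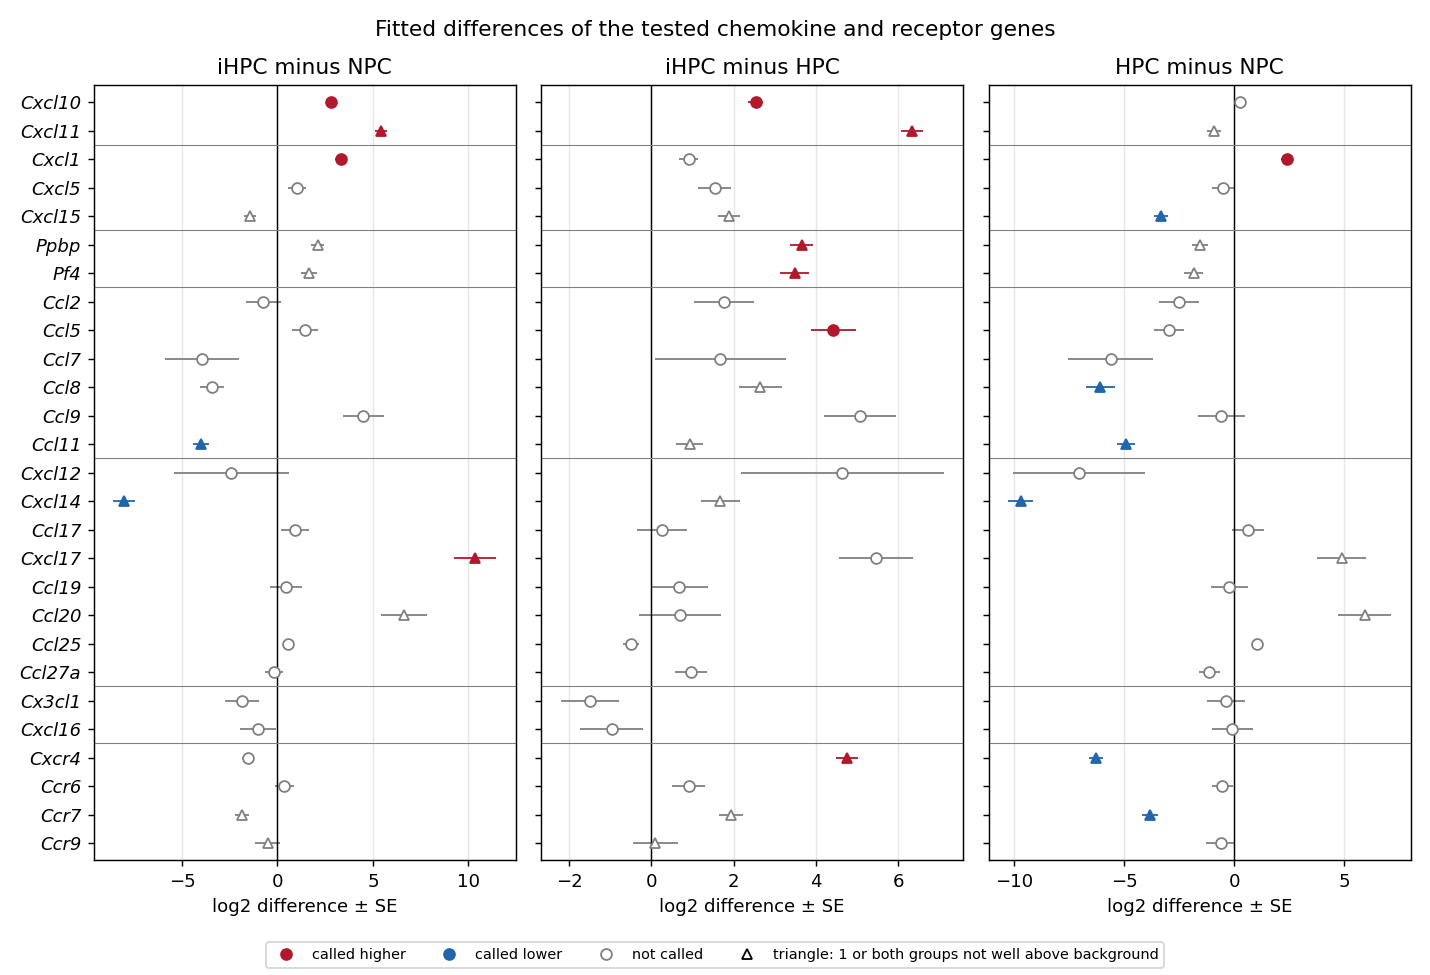
Fitted log2 difference of each tested member in iHPC minus NPC, iHPC minus HPC and HPC minus NPC, each panel on its own scale, with bars of 1 standard error either side from the limma fit, red and blue for genes called higher and lower, and triangles where a group was not well above background, whose fitted size is no measured fold. The widest bars are those of Cxcl12 and Ccl7, with an SE of 2.47 and 1.58 in iHPC minus HPC.

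Arrays within a group were compared with no test, since each is 1 array. Between iHPC 10F and iHPC 9F 0 of the 27 members differed by 4-fold or more, where 0.73% of all genes did. The largest log2 difference of 10F minus 9F downward was -1.70, for Ccl19, and the largest upward was 0.84, for Cxcl5. The median absolute difference was 0.21 over members and 0.15 over all genes. Between HB1 and HNG2 6 of the 27 differed by 4-fold or more, where 8.6% of all genes did, and the median absolute difference was 0.93 over members and 0.53 over all genes. In HB1, Ccl20 was 6.19-fold and Cxcl17 5.26-fold higher than in HNG2. The other 4 were lower in HB1: Cxcl12 at least 21.2-fold, Ccl7 at least 4.63-fold, Ccl9 4.52-fold and Cxcl16 4.04-fold. Ackr3, a scavenging receptor of Cxcl12 and no member by name, was also at least 19.1-fold lower in HB1, with levels of -1.15 and -0.84 in iHPC 9F and 10F, against -7.26 in HB1, -1.73 in HNG2 and 2.62 in NPC. Strain, line and scan day differed together between HB1 and HNG2 and cannot be told apart.

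**Figure D4:**
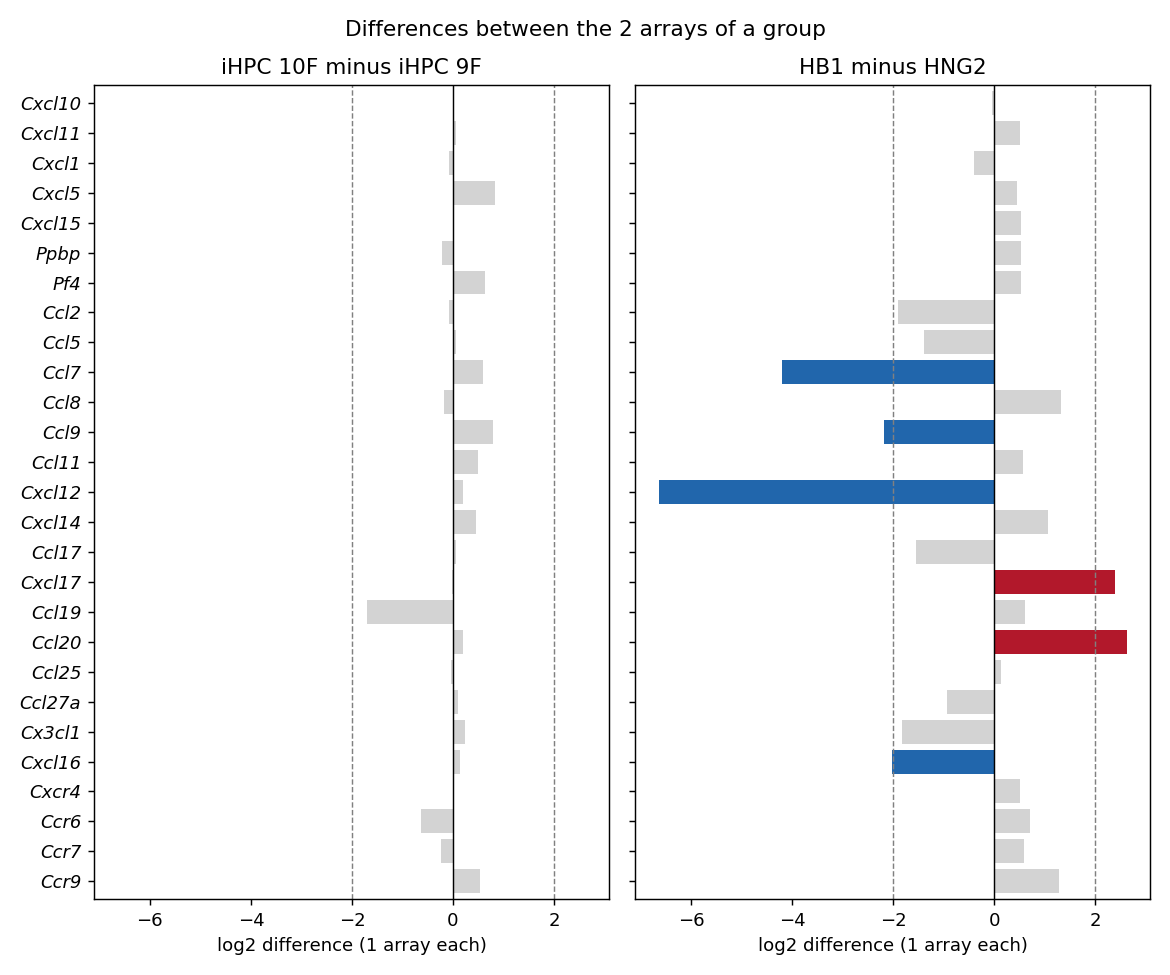
Log2 difference of each tested member between the arrays of a group, iHPC 10F minus iHPC 9F on the left and HPC HB1 minus HPC HNG2 on the right, with dashed lines at 4-fold and coloured bars past them. The iHPC differences lie between -1.70 and 0.84, and those between the HPC lines between -6.64 and 2.63, where HB1 was not above background for Cxcl12 and Ccl7.

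Genes that act with chemokines were read from whole lists. Of 12 other chemokine system genes tested, 1 was called lower and 0 higher between iHPC and NPC, 1 was called lower and 0 higher between iHPC and HPC, and 1 was called higher and 1 lower between HPC and NPC. Ackr4, a scavenging receptor for Ccl19 and Ccl25, was above background in NPC alone at -0.89, against -7.97 and -7.49 in iHPC and -8.28 and -8.92 in HPC. Ackr4 was at least 23.3-fold lower in iHPC (limma adjusted p = 0.0285) and at least 42.9-fold lower in HPC than in NPC (limma adjusted p = 0.0112). Ccrl2, which presents the attractant chemerin, was above background in HPC alone, at -4.07 and -4.49, at least 2.22-fold lower in iHPC than in HPC (limma adjusted p = 0.0291) and, for HPC against NPC, at least 2.49-fold higher in HPC (limma adjusted p = 0.0212). The list's median log2 difference was 0.03 for iHPC minus NPC, 0.82 for iHPC minus HPC and -0.53 for HPC minus NPC. Over all genes these medians were 0.03, 0.05 and -0.03, and 5.65%, 5.43% and 15.7% of genes were called.

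Of 31 NF-kappa-B and cytokine genes tested, 2 were called higher and 0 lower between iHPC and NPC, 1 higher and 0 lower between iHPC and HPC, and 3 higher and 2 lower between HPC and NPC. Il6, an inflammatory cytokine, was above background in iHPC only, at -4.44 and -4.71, against -8.13 and -8.30 in HPC and -7.35 in NPC. It was at least 3.32-fold higher in iHPC than in HPC (limma adjusted p = 0.0196) and at least 2.03-fold higher than in NPC (limma adjusted p = 0.0315). Il1rn, the interleukin-1 receptor antagonist, was higher than in NPC both in iHPC (at least 33.7-fold) and in HPC (at least 7.57-fold). Tnfaip3, which restrains NF-kappa-B, was 7.05-fold higher in HPC than in NPC, while the receptors Tnfrsf1b and Tlr2 were 4.86-fold and 10.6-fold lower. The list's median log2 difference was -0.02 for iHPC minus NPC, 0.22 for iHPC minus HPC and -0.35 for HPC minus NPC. Over all genes these medians were 0.03, 0.05 and -0.03, and 5.65%, 5.43% and 15.7% of genes were called.

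Of 15 interferon signalling genes tested, 0 were called between iHPC and NPC, 1 was called higher and 1 lower between iHPC and HPC, and 1 was called higher and 3 lower between HPC and NPC. The receptor chain Ifngr1 had levels of 4.27 and 4.14 in iHPC, against 5.69 and 5.57 in HPC and 2.80 in NPC, 2.68-fold lower in iHPC than in HPC and 7.14-fold higher in HPC than in NPC. Socs3, a feedback inhibitor, was 2.77-fold higher in iHPC than in HPC and 2.39-fold lower in HPC than in NPC. Socs1, with the same role, was 6.99-fold lower in HPC than in NPC. The list's median log2 difference was -0.13 for iHPC minus NPC, 0.47 for iHPC minus HPC and -0.66 for HPC minus NPC. Over all genes these medians were 0.03, 0.05 and -0.03, and 5.65%, 5.43% and 15.7% of genes were called.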

How the data were processed

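RNA (0.25 µg per array) from 5 samples was hybridised to 1-colour Agilent mouse arrays. The deposited intensity values are the processed signals of Agilent Feature Extraction 10.7.3.1, background-subtracted per the file headers, which name build mm7. The deposited value table held the same intensity values on a linear scale, spot for spot, and served as an alternative. Outlier-flagged and control spots were dropped, spots of a probe were averaged, and log2 signal was centred on the 75th percentile of each array. Probes with the scanner's well-above-background call throughout 1 or more groups were kept, with the brightest probe per gene, giving 19308 genes. Current symbols came from RefSeq accessions. Groups were compared with limma 3.58.1 (R 4.3.3; linear models with moderated variances on all 5 arrays, 3 groups, 2-sided, Benjamini-Hochberg over all genes, adjusted p under 0.05). At-least folds set the bright group's mean against, per dim array, the larger of the gene's own signal and the dimmest one the scanner called well above background. They are bounds under this processing only. Named were all members that passed the filter and, from the lists, up to 4 called genes per comparison, except some that are not reported here. Members and lists were chosen with earlier results of these data known. On data simulated for iHPC minus NPC with 19308 genes, the fit recovered 2%, 76%, 90% and 96% of genes changed 4-, 16-, 64- and 256-fold, 50 of each, and called 9 unchanged genes. The simulated arrays all had the spread estimated by the fit. The spread of NPC was not measured, so these rates need not hold for the real comparison. The number of arrays limits precision. An exact permutation test of 2 arrays against 2 cannot go below p = 0.333. Alternatives covered scaling, background correction, the filter, probe choice, the samples fitted, scan day or slide as a block, and leaving out each array.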

Additional observations from a re-analysis of the deposited data

How the results depend on the processing

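Every called member kept its direction under every alternative that could be computed for it. The counts of members called moved. Between iHPC and NPC, 6 members were called, against 10 (5 higher and 5 lower) with quantile normalization, 2 with no filter on dim probes, 2 of 12 with only probes above background on all arrays, 21 with only the groups compared or with scan day as a fixed block, and 0 with iHPC 9F and 10F as separate groups; the counts over all genes, 1090 in the reported fit, were 1555 with quantile normalization, 305 without the filter, 492 with the all-array filter, 6754 with only the groups compared or the scan-day block, and 0 with separate groups. Between iHPC and HPC, 6 were called, against 2 of 12 with the all-array filter and 0 with separate groups; over all genes 1048 became 2121 with normexp background correction, 460 with no filter, 617 with the all-array filter and 0 with separate groups. Median centring split the genes called into 690 higher and 620 lower in iHPC, against 685 and 363, and shifted the median of all genes by -0.24; between HPC and NPC it split them into 1760 higher and 1497 lower in HPC, against 1290 and 1734, with a shift of 0.28. Between HPC and NPC, 7 were called, against 12 (2 higher and 10 lower) with normexp, 11 with a robust trended fit, 2 of 12 with the all-array filter (2 higher and 0 lower, against 1 and 6) and 0 with only the groups compared or with separate groups; over all genes 3024 became 4747 with normexp, 4069 with the robust trended fit, 2345 with the all-array filter, 1643 with no filter and 0 with only the groups compared or separate groups. Leaving out 1 array at a time gave 0 to 21 members (0 to 6754 genes) between iHPC and NPC, 0 to 18 (0 to 6987) between iHPC and HPC, and 0 to 19 (0 to 9762) between HPC and NPC: the fits without an HPC array called more, since the spread then came from the closer iHPC pair, and those without either iHPC array called 0. The median SD was 0.374 for the HPC pair and 0.105 for the iHPC pair.

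Over all members and alternatives, 24 values reversed, none of a called member. The log2 differences were -0.39 for Ccl19 in iHPC minus NPC with the slide as a block (which leaves 1 array each and no test); -0.20 and -0.14 for Ccr9 in iHPC minus HPC with quantile normalization and median centring; 0.082 for Ccl25 in iHPC minus HPC with a mean over probes; and, in HPC minus NPC, 0.025, 0.20, 0.34 and 0.22 for Cxcl16 with quantile normalization, median centring, normexp and a mean over probes, 0.064 for Ccl19 with median centring and 0.21 for Cx3cl1 with a mean over probes. Leaving out 1 array at a time gave -0.39 to 1.31 for Ccl19 in iHPC minus NPC. In iHPC minus HPC it gave -0.51 to 1.03 for Ccl17, -0.17 to 1.53 for Ccl19, -0.61 to 2.02 for Ccl20, -0.42 to 3.78 for Ccl7, -0.54 to 0.74 for Ccr9 and -1.97 to 0.048 for Cxcl16. In HPC minus NPC it gave -0.12 to 1.42 for Ccl17, -0.52 to 0.080 for Ccl19, -1.67 to 0.51 for Ccl9, -1.26 to 0.022 for Ccr9, -1.27 to 0.56 for Cx3cl1 and -1.09 to 0.93 for Cxcl16. The cause was not tested. The random scan-day block could not be fitted with 2 residual degrees of freedom. No paired analysis was possible because the labels give the groups no shared replicate numbers. Dim genes have bounds only, so a gene below background is not shown to be absent.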

Other observations

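Of 17 genes tested that carry or damp chemokine receptor signals, 0 were called between iHPC and NPC, 2 were called higher and 0 lower in iHPC than in HPC, and 2 were called lower and 0 higher in HPC than in NPC. The 2 were Rgs2 and Rgs4 in both comparisons, and HPC held their lowest levels. Rgs2, which switches off Gq signals, had levels of 4.04 and 4.34 in iHPC 9F and 10F, against -0.12 and -0.70 in HB1 and HNG2 and 5.68 in NPC. It was 24.2-fold higher in iHPC than in HPC (limma adjusted p = 0.0206) and 68.1-fold lower in HPC than in NPC (limma adjusted p = 0.0114). Rgs4, a neural regulator of the same family, was not above background in HPC. It was at least 5.04-fold higher in iHPC than in HPC and at least 16.5-fold lower in HPC than in NPC. The median log2 difference over these genes was -0.19 for iHPC minus NPC, 0.02 for iHPC minus HPC and 0.20 for HPC minus NPC. Over all genes these medians were 0.03, 0.05 and -0.03, and 5.65%, 5.43% and 15.7% of genes were called.

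Of 14 genes of the cell-surface glycans that hold chemokines in place, 0 were called between iHPC and NPC, 1 was called higher and 0 lower in iHPC than in HPC, and 3 were called lower and 0 higher in HPC than in NPC. Gpc3, a glypican of fetal liver, had levels of 0.36 and -1.02 in iHPC, against -8.07 and -6.42 in HPC, where it was not above background, and -4.69 in NPC. It was at least 58.9-fold higher in iHPC than in HPC (limma adjusted p = 0.0390). Sdc2, Ndst2 and Hs6st1 were 5.90-fold, 2.43-fold and 2.96-fold lower in HPC than in NPC. The list's median log2 difference was -0.81 for iHPC minus NPC, 0.27 for iHPC minus HPC and -0.75 for HPC minus NPC. Over all genes these medians were 0.03, 0.05 and -0.03, and 5.65%, 5.43% and 15.7% of genes were called.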
